A study of Arabidopsis thaliana with 12 samples.

Results

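Of the 3439 probes on an Arabidopsis thaliana expression array, 97 name several genes and gave a clear signal in every column of the deposited table, and these 97 probes are described here. They were chosen by their annotation and by their deposited levels, in steps. The platform annotation gave 870 probes 2 or more gene names, 116 of these had a deposited intensity above 1 in all 12 columns, and 19 of the 116 were left out because they were among the 100 brightest probes in darkness. All plants were wild type, of the ecotype Landsberg, and all had been treated with 50 µM paraquat. In 6 columns the plants had been kept for 12 h in darkness (dark). In the other 6 they had been returned to light for 30 min after a dark period of 12 h (light). Untreated plants were not analysed here, and the effect of paraquat cannot be told apart from that of light and time. The labels do not say whether the 6 columns of a condition are separate plants or cultures. The p-values therefore reflect column-to-column spread, possibly technical, and 6 columns limit the precision. Fewer cells of a type and less RNA per cell cannot be told apart in such bulk samples.

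An array probe binds every transcript whose sequence matches it closely enough. Duplications of the whole genome and of single genes have left Arabidopsis with many genes in near-identical copies, and a probe from a stretch that such copies share cannot tell their transcripts apart. Its signal is then a mixture with unknown weights, so each change below belongs to the probe and to the whole group of genes that it names, never to a single gene of the group. Paraquat accepts electrons from photosystem I in illuminated chloroplasts and passes them to oxygen, which forms superoxide and hydrogen peroxide. Most genes of these groups carry only a locus number in the annotation and in the RefSeq gene table for assembly TAIR10.1, and a role is given only where those sources hold a gene name.

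The 97 probes held 217 gene names from 207 loci in 95 different groups. A group had 2 genes on 76 probes, 3 genes on 19 and 4 genes on 2. All 217 names were matched to the RefSeq table, and every matched locus was protein coding. The genes of 56 probes lay on different chromosomes. For 30 probes at least a pair of the named genes shared a chromosome but lay more than 2 places apart in gene order, and for 11 probes a pair lay within 2 places. These shares, 57.7%, 30.9% and 11.3%, were close to the 59.1%, 27.0% and 13.3% among all 870 probes with several names. The likeness of the proteins within a group was not analysed here.

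Mean deposited intensities of the members lay between 1.16 and 3.595 with a median of 1.70, above the column medians over all probes of 0.559 to 0.635. The values are on a linear scale that reaches a ceiling of 100 in 11 of the 12 columns, and the sources do not state how they were scaled. The group YUC6/YUC2, flavin monooxygenases of auxin synthesis, had the highest mean, followed by UBC20/UBC19, ubiquitin-conjugating enzymes, and AT5G66000/AT4G35510/AT2G17540. The lowest means belonged to AT1G11380/AT5G05350/AT3G10980, AT1G66430/AT5G51830 and AT3G62430/AT3G54160. Because the rule chose probes by their level, these levels are a description only. Just inside the minimum, AT1G18680/AT3G47490 had a lowest value of 1.01, and just outside it, AT5G19500/AT2G33260 had a lowest value of 0.9998. At the upper limit, YUC6/YUC2 was kept at a dark mean of 3.27, and the group OPCL1/AT1G20480/AT5G63380/AT4G19010/AT4G05160 was left out at 3.65. The limit on dark means removes bright probes by their dark level and takes no account of their light level. All values of a column summed to between 3466 and 3664, of which the members held 4.99% ± 0.0968 (SD, n = 6) in darkness and 5.04% ± 0.128 (SD, n = 6) after light.

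Past the threshold, light was higher than dark for 10 of the 97 probes and lower for 14 (limma on all 3409 probes with a signal, replicate number as a block, Benjamini-Hochberg adjusted p under 0.05, n = 6 per group). Over all probes tested the same fit called 448, or 13.1%, with 6.69% higher and 6.45% lower. The share of members called was 24.7%. It was 23.9% among the 67 equally well-measured probes that name 1 gene and 21.5% among the 209 that name none. Probes that name several genes but were not above 1 in all columns were called in 10.0% of 749. Without the block the shares were 10.3%, 14.9%, 10.5% and 3.74% in the same order. A high share was thus seen in each well-measured class, and no test of a difference between the classes was made. The residual SD on the log2 scale was of like size in the members and in those other well-measured classes, with medians of 0.0965, 0.0929 and 0.0975 respectively, against 0.176 over all probes.

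The differences were small. The called members had a median absolute log2 difference of 0.32, or 1.25-fold, and all 97 lay between -0.73 and 0.52. The median over the 97 was -0.03, beside 0.002 over all probes tested, 0.06 for well-measured probes naming 1 gene and 0.03 for those naming none. With columns centred on their median the member median became 0.02, and the called members became 12 higher and 10 lower, 54.5% higher in place of 41.7%, so another scaling changed the sign of the median and the split between higher and lower calls (14.1% of all probes called). With the values as deposited 8 were higher and 13 lower (12.7% of all probes). The 73 members not called lay between -0.23 and 0.33. Each of the 24 called members moved the same way in all 6 same-numbered comparisons of the deposited values, as did 33 of the 97 and 22.2% of all probes tested. The calls themselves rest on these same-numbered comparisons, so this is no separate support for them.

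Columns with consecutive replicate numbers resembled each other, which bears on every count. Over the members, deviations from the group mean correlated by 0.58 on average between consecutive numbers of a group (1 with 2, 3 with 4, 5 with 6), against 0.30 over the 2554 probes with no value at 0 and a mean above the lower quartile. Same-numbered columns of opposite groups correlated by 0.59 on average over the members. When consecutive numbers entered as a random block beside the replicate block, 15 of the 24 calls remained (236, or 6.92%, of all probes), and with that random block and no replicate block 3 passed (1.23%). When consecutive numbers were averaged to 3 columns per group, limma called 0 members, with 20 at an unadjusted p under 0.05. The same averaged fit with a larger offset and without dim probes called 17, all among the 24 (12.3% of the 2579 probes kept). Without the replicate block 10 of the 24 passed (197, or 5.78%, of all probes). Leaving out number 1, 2, 3, 4, 5 or 6 gave 8, 9, 6, 8, 11 and 17 members, beside 6.10%, 5.81%, 4.93%, 4.66%, 7.54% and 8.86% of all probes. Without numbers 5 and 6, 3 members were called (2.41% of all probes), and without numbers 1 and 2 or without 3 and 4 limma called 0 members and 0 probes, with 37 and 31 members at an unadjusted p under 0.05. The larger offset gave 30 members (19.5%), leaving out dim probes 29 (23.5%) and trended, robust moderation 32 (18.5%). The labels do not say whether consecutive numbers are repeats of 1 sample.

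Of the 24 calls, 5 passed in each of 7 fits: the paired fit, the fit without the block, the random block, averaged columns with the larger offset, both other scalings, and centring within runs of 96 probe numbers, which called 14 members and 9.03% of all probes. All 7 fits were passed by 2.64% of all probes (90 of 3409, where the averaged fit kept only 2579). Fits that called 0 members, such as plain averaging of consecutive numbers, were not among the 7, so no member passed every fit run. Also left out were the random block without the replicate block and the fit without numbers 5 and 6. Each of these kept only 3 of the named calls, so not all 5 passed either of them. The 5 members were the groups AT1G69660/AT1G69650, AT5G27440/AT5G24790, AT4G22850/AT4G12000 and AT5G47610/AT4G17245, which fell, and AT5G27300/AT2G27800/AT2G27790, which rose.

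Among the probes lower in light, the group AT1G69660/AT1G69650, adjacent genes on the chromosome, moved most. Its deposited intensity had a lowest value of 2.67, a median of 3.31 and a highest of 3.61 in dark, and 1.83, 1.96 and 2.28 in light. All dark columns thus lay above all light columns, and the fall was 1.66-fold (log2 -0.73 ± 0.06 SE, limma adjusted p = 0.00800). By consecutive numbers the log2 differences were -0.84, -0.77 and -0.58. The group AT5G27440/AT5G24790, on the same chromosome but far apart, went from a lowest value of 2.57, a median of 3.22 and a highest of 3.36 in dark to 1.83, 2.18 and 2.55 in light. Its highest light column lay just under its lowest dark column, and the difference was log2 -0.57 ± 0.08 (SE, limma adjusted p = 0.0105).

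The group AT4G22850/AT4G12000 had 1.67, 1.90 and 2.12 as its lowest, median and highest dark values and 1.36, 1.40 and 1.49 in light. The light columns were close together, all of them below the dark ones (log2 -0.45 ± 0.05 SE, limma adjusted p = 0.00829). For AT5G47610/AT4G17245 the dark values ran from 1.503 through a median of 2.01 to 2.28 and the light values from 1.35 through 1.45 to 1.56. Here the groups overlapped through a single low dark column, and the difference was -0.60 in numbers 1 and 2 and -0.19 in numbers 5 and 6 (log2 -0.42 ± 0.08 SE, limma adjusted p = 0.0291).

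The group AT5G63390/AT3G07900/AT2G44500 fell without overlap, from 1.48, 1.60 and 1.69 (lowest, median and highest) in dark to 1.04, 1.26 and 1.36 in light (log2 -0.33 ± 0.04 SE, limma adjusted p = 0.00950). The group AT1G20500/4CL8 also fell. The name 4CL8 places its gene among the relatives of 4-coumarate:CoA ligase, a family of enzymes that activate acids with coenzyme A, some of which make precursors of lignin and flavonoids. Its dark values ran from 1.49 through a median of 1.82 to 2.06 and its light values from 1.32 through 1.40 to 1.54, with a slight overlap (log2 -0.32 ± 0.05 SE, limma adjusted p = 0.0188). A dimmer probe outside the 97, named OPCL1/AT1G20500/AT1G20490/4CL8, was lower in light as well, at means of 0.374 in dark and 0.210 in light (log2 -0.78, limma adjusted p = 0.0327). OPCL1 is an enzyme of the same family that takes part in jasmonate synthesis. The probes share 2 genes and the same columns, so this is not independent support. For 2 other groups that fell, a dimmer outside probe had a positive difference that did not pass. A probe for AT1G12450/AT4G22850/AT4G12000 was at log2 0.27 and a probe for AT5G63390 at 0.02 (limma adjusted p = 0.424 and 0.873).

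Smaller falls were found for 6 further named groups. AT4G36580/AT2G18330 and AT5G44820/AT4G19970 had log2 differences of -0.32 and -0.31, and AT1G24270/AT5G13090 (probe_3602) had -0.27. AT1G33780/AT3G29240/AT3G19780 had -0.25 with no overlap between the groups, its dark values between 1.25 and 1.54 and its light values between 1.05 and 1.21. After centring within runs of 96 probe numbers its difference shrank to -0.07 (limma adjusted p = 0.437). AT1G32010/AT5G38190 (probe_4154) had -0.24, and AT3G26630/AT2G42920 had -0.23, with limma adjusted p between 0.0174 and 0.0366 for the 6. Outside the 97, a brighter probe that names AT3G26630 alone was at log2 0.18 (limma adjusted p = 0.219), and a dimmer probe for LPA66/AT2G42920 was at -0.31 (limma adjusted p = 0.204). The remaining 2 calls of the 14 were AT3G52760/AT2G36300 and AT1G09520/AT3G17460, each at log2 -0.23, which lie outside the rule for named genes and were named after their values had been seen. Of the 97, 6 had all dark columns above all light columns, 5 of them called, where 2.82% of all probes did (4.66% in either direction). The sixth was AT1G74840/AT1G19000, named for this reason, with dark values of 1.20 to 1.38 and light values of 1.07 to 1.19 but a normalised log2 difference of -0.12 (limma adjusted p = 0.317). No member had all light columns above all dark columns, where 1.85% of all probes did.

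Among the probes higher in light, AT5G62350/AT3G47380 rose most. It had 1.66, 1.84 and 2.62 as its lowest, median and highest dark values and 2.50, 2.77 and 3.63 in light. The groups overlapped, and light was above dark within each of the 6 numbers (log2 0.52 ± 0.06 SE, limma adjusted p = 0.00810, but 0.103 without the block). The group AT5G27300/AT2G27800/AT2G27790, with an adjacent pair of genes, went from 1.31, 1.52 and 1.69 in dark to 1.67, 2.12 and 2.19 in light. A single light column reached into the dark range, and the rise was 1.36-fold (log2 0.44 ± 0.09 SE, limma adjusted p = 0.0274, and 0.0118 without the block).

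The group AT1G78140/AT2G41040 ran from 1.18 through a median of 1.54 to 1.79 in dark and from 1.29 through 2.07 to 2.74 in light. Its light columns were widely spread, and the mean differences by consecutive numbers were 0.62, 0.43 and 0.23 (log2 0.43 ± 0.08 SE, limma adjusted p = 0.0280, but 0.159 without the block). For AT1G73750/AT1G15060 the values were 1.24, 1.45 and 1.85 in dark and 1.82, 1.94 and 2.27 in light. The overlap was slight (log2 0.41 ± 0.08 SE, limma adjusted p = 0.0301, but 0.106 without the block), and the differences by consecutive numbers were 0.66, 0.37 and 0.21. A dimmer probe that names the same pair of genes, at means of 0.814 in dark and 0.799 in light, differed by 0.06 on the log2 scale (limma adjusted p = 0.567).

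The group TROL/AT3G25480 rose by a log2 value of 0.30 ± 0.07 (SE, limma adjusted p = 0.0461). TROL, a thylakoid rhodanese-like protein, anchors ferredoxin-NADP reductase at the thylakoid membrane. Its dark values were 1.70, 2.06 and 2.47 (lowest, median, highest) and its light values 2.15, 2.43 and 3.25. The ranges overlapped, and the differences by consecutive numbers were 0.43, 0.09 and 0.38. The call was lost in several fits: limma adjusted p was 0.264 without the block, 0.0540 with columns centred on the median and 0.0680 with the random block. After centring within runs of 96 probe numbers the difference was 0.16 (limma adjusted p = 0.224).

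The other 5 that rose were AT1G32010/AT1G32000/AT5G38190 (log2 0.35), AT5G66000/AT4G35510/AT2G17540 (0.32), AT1G01570/AT4G00295 (0.29), AT1G75230/AT1G19480 (0.21) and AT1G55340/AT3G03880 (0.21), with limma adjusted p between 0.0197 and 0.0491. Among these, AT5G66000/AT4G35510/AT2G17540 went from 2.08, 2.84 and 3.21 in dark to 2.83, 3.47 and 4.48 in light, the brightest probe that rose. AT1G01570/AT4G00295 was the only one of the 5 to pass without the block (limma adjusted p = 0.0345). AT1G55340/AT3G03880 and AT1G75230/AT1G19480 missed the threshold with the values as deposited (limma adjusted p = 0.0539 and 0.0765).

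Across the 22 named calls, 12 did not pass without the block, with limma adjusted p between 0.0879 and 0.354. They were, among the 10 that rose, all but AT5G27300/AT2G27800/AT2G27790 and AT1G01570/AT4G00295, and among those that fell AT4G36580/AT2G18330, AT1G24270/AT5G13090 (probe_3602), AT1G32010/AT5G38190 (probe_4154) and AT3G26630/AT2G42920. All 22 kept their direction in every fit run, which adds little. A change of block or of moderation leaves the log2 difference itself as it was, and the other fits reuse the same values.

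Groups whose genes carry a name in the annotation are described whatever their result. LIL3:2/LIL3:1, light-harvesting-like proteins that hold an enzyme of chlorophyll and tocopherol synthesis at the thylakoid, had a dark mean of 1.28 ± 0.0764 and a light mean of 1.26 ± 0.129 (SD, n = 6; log2 0.02 ± 0.06 SE, limma adjusted p = 0.876). The thylakoid curvature proteins CURT1D and CURT1A (AT4G38100/AT4G01150), which bend the membrane at the edges of grana stacks, had 2.09 ± 0.353 and 2.12 ± 0.290 (SD, n = 6; log2 -0.01 ± 0.05 SE, limma adjusted p = 0.930). Neither probe showed a difference beyond the spread between columns. Of the 3 groups with a thylakoid protein by name, TROL/AT3G25480 alone passed, and differences between these probes were not tested. A dimmer probe that is not a member names the same genes as LIL3:2/LIL3:1. It was at means of 0.924 in dark and 1.04 in light. Its difference was larger than that of the member but did not pass (log2 0.22 ± 0.07 SE, limma adjusted p = 0.0966). The difference between it and the member was not tested.

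YUC6/YUC2 was higher in light in 6 of 6 numbers, with a dark mean of 3.27 ± 0.372 and a light mean of 3.92 ± 0.477 (SD, n = 6; log2 0.20 ± 0.05 SE), but missed the threshold (limma adjusted p = 0.0520). It passed with the larger offset, without dim probes and with trended, robust moderation. UFO/AT5G15710, where UFO is an F-box protein of flower development, was higher in 6 of 6 numbers as deposited and in 5 of 6 after normalisation, with deposited means of 2.49 ± 0.432 and 2.91 ± 0.356 (SD, n = 6; log2 0.17 ± 0.07 SE, limma adjusted p = 0.163), and of the fits run passed only under median centring of the columns (limma adjusted p = 0.0287). IQD28/IQD29, calmodulin-binding proteins of the IQ-domain family, had a difference of -0.05 on the log2 scale (limma adjusted p = 0.526). This probe was lower in light in 6 of 6 numbers as deposited, but number 1 was higher by 0.11 (log2) after normalisation. CSA1/AT3G51570, where CSA1 was named for constitutive shade avoidance, had -0.06, and ATCSA-1/AT1G19750 had -0.09 (limma adjusted p = 0.562 and 0.412).

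UBC20/UBC19 was the only member that matched any of 13 keyword lists of pathways, that of chaperones, import and proteolysis, while the reference gives few of these loci a name. It had a dark mean of 3.21 ± 0.254 and a light mean of 3.08 ± 0.285 (SD, n = 6; log2 -0.14 ± 0.06 SE, limma adjusted p = 0.187). A dimmer probe outside the 97 names the same pair of genes and was higher in light, at means of 0.848 in dark and 1.04 in light (log2 0.35 ± 0.09 SE, limma adjusted p = 0.0465). Probes with the same pair of names thus stood on opposite sides of 0. The difference between them was not tested.

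Some genes were named by more than 1 member, which allowed probes of overlapping groups to be set side by side. There were 5 such pairs of members, and the difference between their light-minus-dark values was tested over the 6 numbers by a two-sided exact sign-flip permutation test, whose smallest possible p is 0.0312. The test takes the 6 numbers as separate units, although consecutive numbers resembled each other. If those are repeats of 1 sample, which the labels do not say, its p-values are too small. The pair that differed most was AT1G32010/AT1G32000/AT5G38190 (probe_3398) and AT1G32010/AT5G38190 (probe_4154). The first ran from 1.06 through a median of 1.60 to 2.11 in dark and from 1.49 through 2.09 to 2.47 in light, and was higher in light in 6 of 6 numbers. The second ran from 1.59 through 1.93 to 2.07 in dark and from 1.32 through 1.64 to 1.82 in light, and was lower in 6 of 6. Their log2 differences of 0.35 and -0.24 each passed the threshold (limma adjusted p = 0.0209 and 0.0246, but 0.331 and 0.126 without the block), and they lay 0.59 ± 0.07 apart (SE, n = 6; exact permutation p = 0.0312, the smallest possible, and 0.0781 adjusted over the 5 pairs). The distance was 0.38, 0.68 and 0.71 by consecutive numbers. The second missed the threshold under median centring of the columns (limma adjusted p = 0.0892), as it did after centring within runs of 96 probe numbers (log2 -0.14, limma adjusted p = 0.266). Both probes name AT1G32010 and AT5G38190, and the first also names AT1G32000, a neighbour of AT1G32010.

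The 2 probes for AT5G61200/AT5G07890 had log2 differences of -0.08 (probe_501) and 0.18 (probe_2555), which differed in the same direction in 6 of 6 numbers, in 1 of them by only -0.0025 (exact permutation p = 0.0312, adjusted 0.0781). The 2 probes for AT1G24270/AT5G13090 had -0.01 (probe_1693) and -0.27 (probe_3602), and only the second passed (exact permutation p of the difference 0.0625, adjusted 0.104). AT5G62910/AT3G48070 had -0.05 and, with AT1G74870 added, 0.16 (exact permutation p = 0.188, adjusted 0.188). AT5G54360/AT5G54350 had 0.17 and, with AT5G54340 added, 0.01 (exact permutation p = 0.125, adjusted 0.156). None of the 5 pairs passed an adjusted p of 0.05. With 6 numbers, a pair could pass after adjustment only if most of the 5 pairs stood at the smallest possible p. The adjusted values therefore cannot decide whether a single pair differs.

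Beyond these pairs, 32 members shared a gene with a probe outside the 97, in 37 combinations. In 16 of these the genes were exactly the same, and 13 of the 16 outside probes had no value at 0. Of these 13, 8 had the same sign as the member and 5 the opposite sign. The outside probes past the threshold numbered 4 over the 37 combinations, where 13.1% of all probes tested passed. Besides the OPCL1 and UBC20 probes they were a probe for AT4G20840/AT4G20830, at means of 1.13 in dark and 0.904 in light (log2 -0.27, limma adjusted p = 0.0158, beside -0.06 for the member), and a probe for AT1G75460/AT1G19740/AT1G18660, at 1.12 and 0.832 (log2 -0.40, limma adjusted p = 0.0343). The member AT1G75460/AT1G19740 was at log2 0.22, which did not pass (limma adjusted p = 0.117). These were named after their values had been seen.

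Calls were found in each kind of gene arrangement. Of the 56 probes whose genes lie on different chromosomes, 6 were higher and 10 lower. Of the 30 whose genes share a chromosome at a distance, 2 were higher and 3 lower. Of the 11 with a pair within 2 places, 2 were higher and 1 lower. Among all probes naming several genes, the same arrangements held 31 higher and 31 lower of 514, 18 higher and 9 lower of 235, and 5 higher and 10 lower of 116. The members are part of these, and no difference between arrangements was tested. The fit called 24.7% of all members and 13.1% of all probes tested. Among probes naming several genes but not above 1 in all columns it called 10.0%. Counts of the members and of all probes naming several genes are therefore not comparable by arrangement alone. The members' median log2 differences were -0.05, -0.02 and -0.02. Over the 97 members, the mean light-minus-dark difference of numbers 1 and 2 correlated with that of numbers 3 and 4 by 0.62 and with that of numbers 5 and 6 by 0.54, and the latter sets by 0.70. These correlations are across probes, which share the columns and are not independent. Of the 97, 56 had the same sign in all 3 sets. The like share over all probes is not given here, so this count is a description only.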

How the data were processed

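The authors deposited linear intensity values in 1 table, and the sources do not give its background treatment or scaling. Quantile normalisation left exact zeros at 0, and values were transformed as log2(value + 2.53e-05), the lowest positive value. The 30 probes at 0 throughout were left out. limma 3.58.1 in R 4.3.3 (lmFit, eBayes, two-sided) was fitted to 3409 probes with the replicate number as a block. Log2 differences are on this scale, intensities as deposited. Replicate numbers come from the titles. Pairing by replicate number was set by the plan. Same-numbered columns of opposite groups deviated together, with correlations of 0.660 to 0.786 over 2554 probes and 0.471 to 0.672 over the 97 members. Over the members, consecutive numbers of a group correlated about as much, with means of 0.591 for same-numbered and 0.580 for consecutive columns.

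Gene names are those of the platform annotation and may be old, and RefSeq's TAIR10.1 table gave gene order. Genes named were, among members past the threshold, the 12 largest changes in each direction (all 10 that rose), up to 4 per keyword list, the 3 brightest and 3 dimmest, and groups with a gene name or sharing a gene with another member. The last of these were added later. The members and lists were chosen with earlier results of these data known. The planned grouping by protein likeness was not made, since no protein sequences were used here. Alternatives were other scalings, offsets, filters, blocks and left-out numbers. The script was tested on simulated data.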

Additional observations from a re-analysis of the deposited data

Results flagged for a closer look

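A single column lay apart from the rest of its group in 3 of the 80 groups of 6 values of the 40 named members, and about 4 are expected by chance. Over all 97 members it did so in 10 of 194 groups, where chance gives about 9.7. AT5G61200/AT5G07890 (probe_501) was at 1.63 in light column 6, against 1.44 to 1.47 in the other light columns. UBC20/UBC19 was at 3.67 in dark column 2, against 2.98 to 3.23. AT5G44820/AT4G19970, which fell in light, was at 1.33 in dark column 6, against 1.63 to 1.74.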

How the results depend on the processing

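Against 24 members and 448 probes called in the paired fit, no replicate block gave 10 and 197, consecutive numbers as a random block 15 and 236, and that block with no replicate block 3 and 42. Averaging consecutive numbers gave 0 and 0 (20 and 618 at an unadjusted p under 0.05), where fewer columns were tested. Without numbers 1 and 2 the counts were 0 and 0 (37 and 848 unadjusted), without 3 and 4 also 0 and 0 (31 and 729), and without 5 and 6 they were 3 and 82. Leaving out 1 replicate number gave 6 (without number 3) to 17 (without number 6) members and 159 to 302 probes, and a median of -0.037 to -0.0196 over the members. Centring within runs of 96 probe numbers, chosen after seeing the data, gave 14 members, 13 of them among the 24. The member median turned to 0.0233 with columns centred on the median. A minimum of 2 in place of 1 left 8 probes with 1 call, and a minimum of 0.5 gave 316 with 55, where the paired fit called 13.1% of all probes. The cause of these shifts was not tested. With the values as deposited, columns centred on the median, the larger offset, no dim probes, trended and robust moderation or the 100 brightest kept in, 21 to 32 members were called. The shares of all probes tested in these fits ran from 12.7% as deposited to 23.5% without dim probes.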
